A study of Mus musculus with 6 samples.

Results

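The 9 genes described here carry out or serve the making of androgen in theca and interstitial cells of the ovary, and they were chosen by name: Star, Cyp11a1, Hsd3b1, Cyp17a1, Fdx1, Fdxr, Por, Insl3 and Mgarp. All 9 were among the 16454 genes measured. Polyadenylated RNA was sequenced from whole ovaries of outbred CD1 mice at postnatal day 21. The DEHP lineage (3 ovaries) descended from F0 dams given 20 µg/kg/day of di(2-ethylhexyl) phthalate, a plasticizer, and the control lineage (3 ovaries) from F0 dams given tocopherol-stripped corn oil. All ovaries were of the F3 generation, and the labels give dosing for the F0 dams only. The comparison asks whether these genes differ in descendants of dosed dams. The labels do not tie the ovaries to litters or founding dams, so each p-value reflects only how these ovaries vary, which may be technical.

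Androgen synthesis starts with cholesterol. STAR brings it to the inner mitochondrial membrane, where CYP11A1 cleaves its side chain to give pregnenolone, with electrons that pass from ferredoxin reductase (FDXR) through ferredoxin (FDX1). HSD3B1 and CYP17A1 then turn pregnenolone into androstenedione, and CYP17A1 draws its electrons from POR in the endoplasmic reticulum. Theca cells run this route under luteinizing hormone, and granulosa cells convert the androgen to estrogen. INSL3 is a peptide hormone of theca cells, and MGARP is a mitochondrial protein found in steroid-forming tissues. The nuclear receptor NR5A1 and GATA factors are known regulators of several of these genes.

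Values are log2 CPM (log2 of read counts scaled to library size), or CPM where so named. The authors had already removed a surrogate variable, an estimated nuisance direction across samples. The deviations from the lineage means filled 3 directions in place of 4, and the emptied one weighed mostly on replicates 1 and 3 of the DEHP lineage (-0.60 and 0.75). Across genes, the correlation between these ovaries was 0.998, and that of the other pairs of libraries was 0.978 to 0.989. The spread between DEHP-lineage ovaries below is therefore that left after the removal. Summed CPM was 979868 to 1026735 per library and depth is unknown.

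Promoter windows of RefSeq (GRCm38.p6), from 250 bases before to 50 after a transcript start, were held for 7 of the 9 genes, in 8 windows. They are shown for the side-chain cleavage enzyme, for the dehydrogenase with the highest level, and for Fdx1 and Mgarp, whose levels followed each other most closely across ovaries within the lineages. Each is written 5′ to 3′ along the strand of the gene. Capitals mark the nuclear receptor core AGGTCA, the GATA site AGATAA, or its reverse complement TTATCT.
Cyp11a1 (the second of its 2 windows), chr9:58014702-58015001, plus strand: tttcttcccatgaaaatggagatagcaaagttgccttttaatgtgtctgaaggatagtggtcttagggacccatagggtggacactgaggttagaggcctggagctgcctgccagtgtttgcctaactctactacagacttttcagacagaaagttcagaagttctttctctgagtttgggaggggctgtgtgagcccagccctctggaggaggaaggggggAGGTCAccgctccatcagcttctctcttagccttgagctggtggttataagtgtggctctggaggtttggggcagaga
Hsd3b1, chr3:98859745-98860044, minus strand: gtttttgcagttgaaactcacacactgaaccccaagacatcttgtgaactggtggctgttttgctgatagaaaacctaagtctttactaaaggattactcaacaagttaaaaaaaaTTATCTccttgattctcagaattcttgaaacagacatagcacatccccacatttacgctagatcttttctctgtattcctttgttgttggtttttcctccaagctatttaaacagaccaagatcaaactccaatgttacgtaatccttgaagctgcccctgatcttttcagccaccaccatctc
Fdx1, chr9:51963553-51963852, minus strand: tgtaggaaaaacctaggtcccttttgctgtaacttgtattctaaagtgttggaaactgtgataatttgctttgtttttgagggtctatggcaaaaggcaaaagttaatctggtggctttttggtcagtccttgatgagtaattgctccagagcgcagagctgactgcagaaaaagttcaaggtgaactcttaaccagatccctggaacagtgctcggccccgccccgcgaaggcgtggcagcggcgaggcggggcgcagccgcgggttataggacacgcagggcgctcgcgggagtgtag
Mgarp, chr3:51396498-51396797, minus strand: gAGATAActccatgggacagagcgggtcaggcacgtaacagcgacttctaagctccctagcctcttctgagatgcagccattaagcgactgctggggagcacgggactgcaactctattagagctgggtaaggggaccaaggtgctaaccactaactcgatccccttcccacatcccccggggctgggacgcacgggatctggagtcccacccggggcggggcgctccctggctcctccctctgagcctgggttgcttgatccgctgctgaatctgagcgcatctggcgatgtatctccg

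Both strands were searched. AGGTCA was in the Cyp11a1 window, 28 bases before the start, and in 1 of the 8 windows, against 16.3% of 32851 windows of all genes. AGATAA was in those of Hsd3b1 and Mgarp, 2 of the 8, against 11.2% of all. The longer nuclear receptor 5A sites CAAGGTCA and CAAGGCCA, the cAMP element TGACGTCA and the TATA box TATAAA were in 0 of the 8, against 1.56%, 2.40%, 1.79% and 13.6% of all windows. A CAAGGTCA site also holds AGGTCA. These matches describe letters in these windows only.

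Hsd3b1 had by far the highest level of the 9 per length of exon. Levels between genes were compared as CPM per kilobase of GENCODE exon. Hsd3b1 stood at 1112 ± 11.4 CPM per kb in the DEHP lineage and 1272 ± 197 in the control lineage (SD, n = 3 each), above 99.97% of 14466 genes with a length. Its range over the 6 ovaries did not meet that of the next gene. Fdxr, Cyp11a1, Mgarp, Cyp17a1, Por and Fdx1 followed, between 12.6 and 37.8 CPM per kb in the DEHP lineage and between 16.0 and 43.7 in the control lineage. In that stretch each gene's range overlapped that of its neighbour in the order, so the order of neighbours there is not resolved. Star, the cholesterol carrier that opens the route, stood apart below them at 2.90 ± 0.245 CPM per kb in the DEHP lineage and 4.39 ± 1.45 in the control lineage. Insl3 came last, at 0.786 ± 0.142 and 1.07 ± 0.364 CPM per kb in the DEHP and control lineages.

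**Figure D1:**
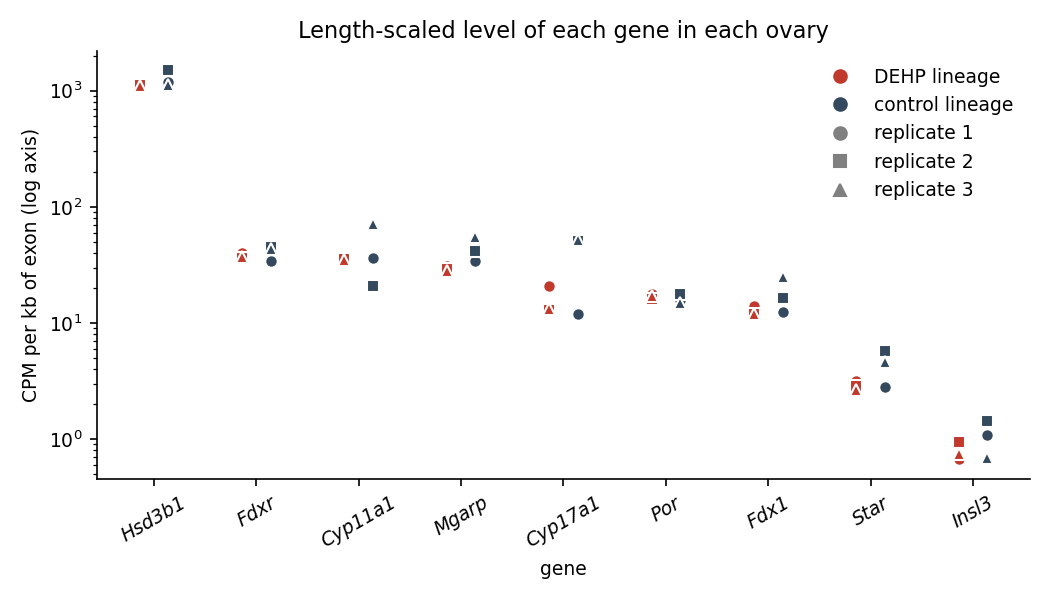
Level of each of the 9 genes in each ovary, as CPM per kilobase of exon on a log axis, with DEHP-lineage ovaries left of control-lineage ovaries. Hsd3b1 lies at or above 1102 CPM per kb in every ovary, and Star and Insl3 lie below the other genes.

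The means of 8 of the 9 genes were lower in the DEHP lineage, and none passed the test over all genes. By limma with Benjamini-Hochberg adjustment, 0 of the 9 had an adjusted p under 0.05, where 0.0425% of all genes had one. An unadjusted p under 0.05 was found for 1 of the 9, Mgarp, against 8.78% of all genes, and 4.02% of all genes had one with a lower mean in the DEHP lineage. With 4 residual degrees of freedom in place of 3, 0 of the 9 and 0.122% of all genes were called. The lineages did not overlap in 2 of the 9, Mgarp and Hsd3b1, against 22.9% of all genes, so that count is near the background. Those 2 genes were both lower, and 12.2% of all genes were lower with no overlap. Of all genes, 53.1% had a lower mean in the DEHP lineage. A log2 difference of -0.5 or below was found for 3 of the 9 (Cyp17a1, Star and Mgarp), against 3.48% of all genes. The median log2 difference (DEHP minus control lineage) of the 9 genes was -0.40, beside -0.01 over all genes. That median is the value of Insl3, a gene under 1 CPM. It was -0.18 on the log2(CPM + 1) scale, and -0.32 over the other 8 genes without Insl3. The genes share 6 libraries and were chosen with earlier results known, so these counts carry no test of the group.

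**Figure D2:**
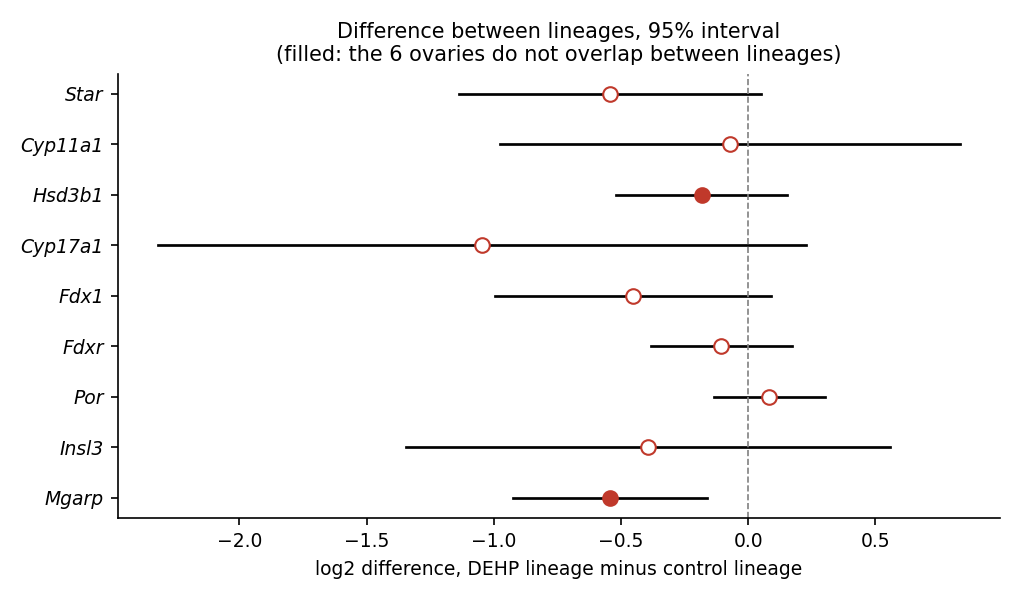
Log2 difference of each gene, DEHP lineage minus control lineage (points), with the 95% interval of the limma fit (lines). Filled points are genes whose 3 DEHP-lineage ovaries do not overlap the 3 control-lineage ovaries. The interval leaves out 0 for Mgarp alone, and that gene's adjusted p is 0.48.

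Star (Entrez 20845, chromosome 8, 25808474 to 25815982, GRCm38.p6) encodes the protein that delivers cholesterol to CYP11A1. It was at 13.0, 11.8 and 11.0 CPM in DEHP-lineage replicates 1 to 3, against 11.6, 23.4 and 19.1 CPM in control-lineage replicates 1 to 3. Control replicates 2 and 3 were the high ovaries, and control replicate 1 lay among the DEHP lineage. The log2 difference was -0.54 (SE 0.253, 95% interval -1.14 to 0.05, limma adjusted p 0.592). It was -0.33 without control replicate 2 and -0.83 without control replicate 1. In whole ovaries, fewer cells of a type and less RNA per cell cannot be told apart, here and below.

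Cyp11a1 (Entrez 13070, chromosome 9, 57998024 to 58027031) encodes the side-chain cleavage enzyme. It was at 175, 170 and 169 CPM in the DEHP lineage (replicates 1 to 3), against 173, 99.3 and 341 CPM in the control lineage. The lowest and the highest of the 6 ovaries were thus both controls, control replicates 2 and 3, with the DEHP lineage close together between them. The log2 difference was -0.07 (SE 0.386, interval -0.98 to 0.83, limma adjusted p 0.967), and it was 0.39 without control replicate 3 and -0.50 without control replicate 2. A noncoding gene on the same strand, Gm17322, overlaps its exons, and 3.06% of the 31-base words of Cyp11a1 occur in other genes.

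The electron carriers of the mitochondrion differed in how they varied. Fdx1 (Entrez 14148, chromosome 9, 51943023 to 51963602), the ferredoxin, was at 43.3, 37.3 and 37.0 CPM in the DEHP lineage, against 38.7, 51.4 and 77.2 CPM in the control lineage. Control replicate 1 again lay among the DEHP-lineage ovaries, and control replicate 3 was highest. The log2 difference was -0.45 (SE 0.232, interval -0.997 to 0.09, limma adjusted p 0.626). Without control replicate 3, this difference was -0.19, and without control replicate 1 it was -0.69. Fdxr (Entrez 14149, chromosome 11, 115268024 to 115277101), the reductase that feeds it, ranged from 101 to 113 CPM in the DEHP lineage and from 95.7 to 126 CPM in the control lineage. Its log2 difference of -0.11 had an interval of -0.38 to 0.17, and the lineages overlapped. It was -0.03 without control replicate 2, -0.05 without control replicate 3 and -0.23 without control replicate 1, where the limma adjusted p was 0.604, or 0.233 with nominal degrees of freedom.

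Hsd3b1 (Entrez 15492, chromosome 3, 98842356 to 98859794) encodes the dehydrogenase and isomerase that makes progesterone and androstenedione. It was at 2085, 2061 and 2044 CPM in the DEHP lineage, against 2212, 2777 and 2090 CPM in the control lineage. The lineages did not overlap, but control replicate 3 lay just above the highest DEHP-lineage ovary, and control replicate 2 was the high one. The log2 difference was -0.18 (SE 0.144, interval -0.52 to 0.15, limma adjusted p 0.748), and without control replicate 2 it was -0.06. Genes of this family share sequence: 13.0% of the 31-base words of Hsd3b1 occur in other genes, and Hsd3b3 shares the most, so its separate level is uncertain to that extent. Hsd3b6, another gene of the family, shares 29.0% of its words, and it was at -0.29 to 0.02 log2 CPM in the DEHP lineage and -0.70 to 0.02 log2 CPM in the control lineage.

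Cyp17a1 (Entrez 13074, chromosome 19, 46667165 to 46673000), which encodes the enzyme that commits steroids to androgens and marks theca cells, had the widest spread. It was at 57.8, 35.8 and 36.6 CPM in DEHP-lineage replicates 1 to 3, against 33.4, 139 and 143 CPM in control-lineage replicates 1 to 3. Control replicates 2 and 3 were high, control replicate 1 was the lowest of the 6, and the lineages overlapped. Mean log2 CPM was 5.40 ± 0.39 in the DEHP lineage and 6.45 ± 1.20 in the control lineage (SD, n = 3 each). The log2 difference of -1.04 (SE 0.544) had an interval of -2.32 to 0.23 and a limma adjusted p of 0.631, so a fold between 0.20 and 1.17 is within it. Without control replicate 1 it was -1.74, with an adjusted p of 0.0994 when the residual degrees of freedom were nominal and 0.00574 when 1 was taken off for the removed variable. Without control replicate 2 or 3 it was -0.71 or -0.69.

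Por (Entrez 18984, chromosome 5, 135670040 to 135735326), the reductase that supplies CYP17A1 and other microsomal enzymes, was the gene with the higher mean in the DEHP lineage. It ranged from 64.1 to 71.2 CPM in the DEHP lineage and from 59.5 to 71.1 CPM in the control lineage. Its log2 difference was 0.08 (SE 0.0934, interval -0.14 to 0.30, limma adjusted p 0.829), the narrowest interval of the 9. It was 0.03 without control replicate 3, 0.16 without control replicate 2, 0.13 without DEHP-lineage replicate 2 and 0.05 without DEHP-lineage replicate 1.

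Insl3 (Entrez 16336, chromosome 8, 71689252 to 71690577), the theca hormone, was under 1 CPM in all 6 ovaries. It was at 0.418, 0.588 and 0.462 CPM in the DEHP lineage, against 0.677, 0.885 and 0.432 CPM in the control lineage. The log2 difference was -0.40 (SE 0.406, interval -1.35 to 0.56, limma adjusted p 0.811), and the lineages overlapped. It was -0.16 without control replicate 2, -0.68 without control replicate 3 and -0.15 on the log2(CPM + 1) scale. Insl3 lies on the same strand as Jak3, a kinase gene whose annotated exons overlap it, and 63.1% of its 31-base words occur in other genes, and Jak3 shares the most. The labels do not say how reads in such overlaps were counted, so the low level of this marker is uncertain. Jak3 had a mean of 20.0 CPM in the DEHP lineage and 14.6 CPM in the control lineage (log2 difference 0.46, limma adjusted p 0.478).

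Mgarp (Entrez 67749, chromosome 3, 51388412 to 51396547), the mitochondrial protein of steroid-forming cells, had the smallest p of the 9. It was at 64.0, 60.6 and 58.1 CPM in the DEHP lineage, against 71.1, 86.3 and 114 CPM in the control lineage. Every control ovary was above every DEHP-lineage ovary, and control replicate 1 was the nearest. The log2 difference was -0.54 (SE 0.162, interval -0.92 to -0.16), with an unadjusted limma p of 0.0114 and an adjusted p of 0.48. Its sign held under each of 21 alternative settings, with values from -0.70 to -0.36.

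**Figure D3:**
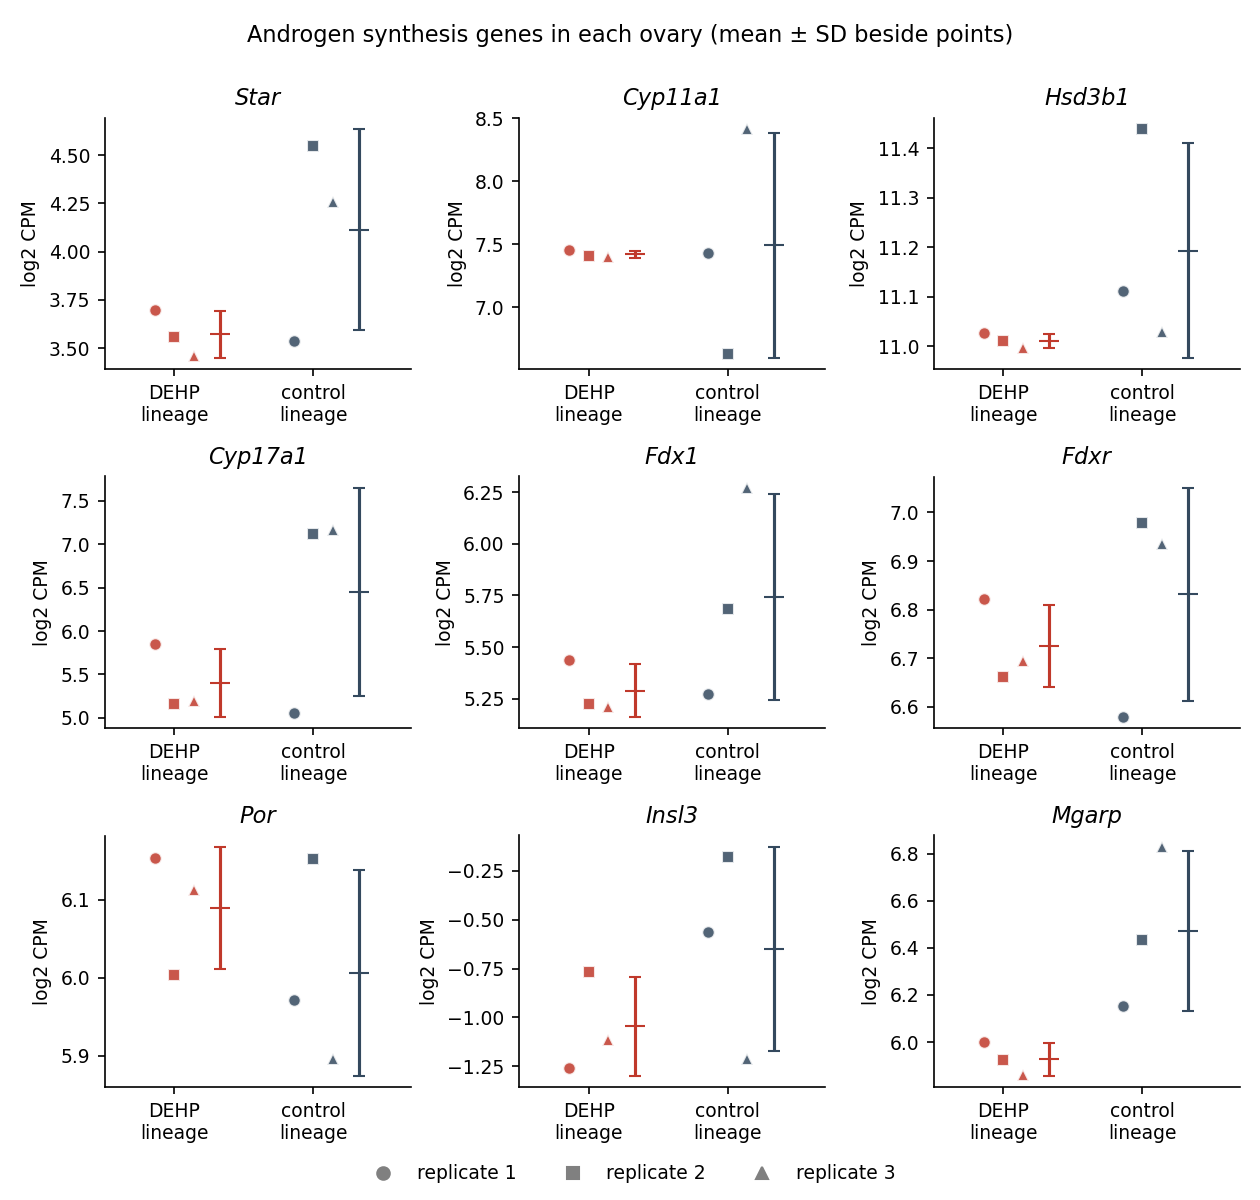
Log2 CPM of the 9 genes in each ovary, one panel per gene with its own axis range, DEHP lineage on the left and control lineage on the right. Shapes give the replicate, and bars give the mean ± SD (n = 3). The SD is smaller in the DEHP lineage for each of the 9 genes, and is largest in both lineages for Cyp17a1.

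The 9 genes did not vary as one block. Each gene was set against its own mean over the 6 ovaries. Control replicate 2 was above that mean for 8 of the 9 genes and control replicate 3 for 6, while control replicate 1 was above it for 2, the same number as DEHP-lineage replicate 1. DEHP-lineage replicates 2 and 3 were each above it for 1. The median deviations of the 9 genes were -0.08, -0.12 and -0.27 in DEHP-lineage replicates 1 to 3, against -0.08, 0.23 and 0.42 in control-lineage replicates 1 to 3. By this median, control replicate 1 lay within the range of the DEHP lineage.

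The genes differed in which ovary was highest, and no test separates these patterns. Cyp17a1 and Star were high in both control replicates 2 and 3, with deviations of 1.20 and 1.24 for Cyp17a1 and 0.71 and 0.42 for Star. Fdx1 and Mgarp were highest in control replicate 3, at 0.75 and 0.63. Cyp11a1 was highest there too, at 0.96, but lowest in control replicate 2, at -0.82. Hsd3b1 and Insl3 were highest in control replicate 2, at 0.34 and 0.67. Over the 6 ovaries, which share the removed variable, Pearson's r was 0.96 between Cyp17a1 and Star, 0.96 between Cyp17a1 and Fdxr and 0.96 between Fdx1 and Mgarp. It was 0.89 between Cyp17a1 and Fdx1, 0.86 between Cyp17a1 and Mgarp and 0.81 between Star and Mgarp, but -0.11 between Star and Cyp11a1 and -0.70 between Cyp11a1 and Hsd3b1. For deviations from the lineage means, r was 0.99 between Fdx1 and Mgarp, 0.83 between Cyp17a1 and Fdx1 and 0.82 between Cyp17a1 and Mgarp. By the same measure it was 0.63 between Star and Mgarp, and -0.92 between Cyp11a1 and Hsd3b1. These are descriptions with few degrees of freedom.

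**Figure D4:**
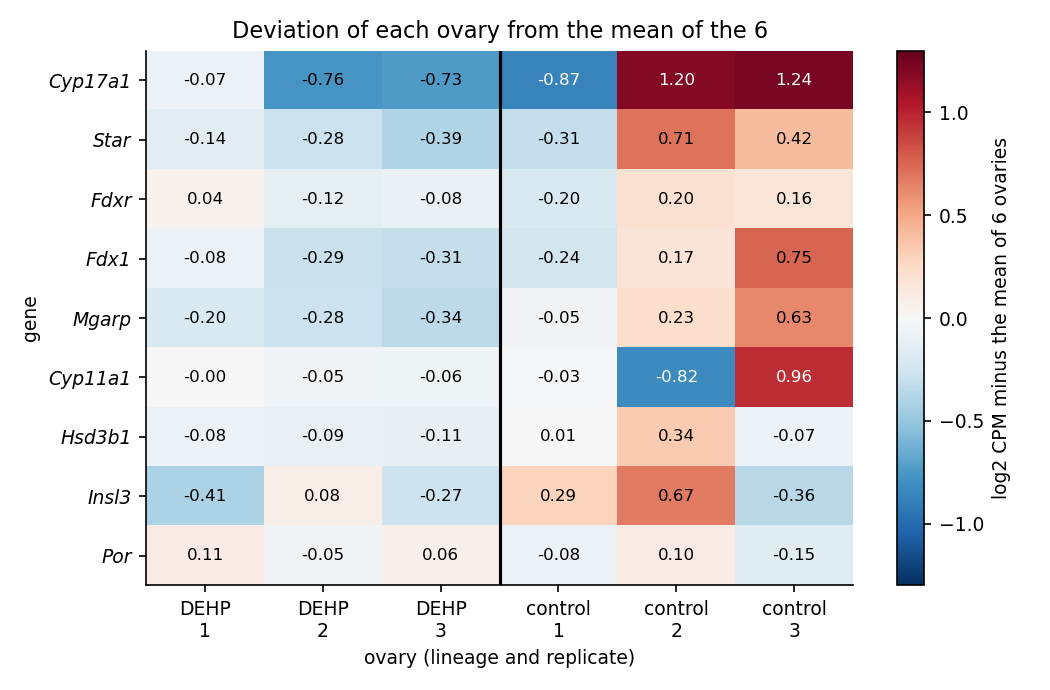
Deviation of each ovary from the mean of the 6 ovaries, in log2 CPM, for each gene (rows) and ovary (columns, DEHP lineage left of the line). Control replicates 2 and 3 carry the large positive values of Cyp17a1 and Star, and Cyp11a1 has values of opposite sign in these ovaries.

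Ratios within an ovary also varied more in the control lineage. The log2 ratio of Cyp17a1 to Cyp11a1 CPM was -1.60, -2.25 and -2.21 in DEHP-lineage replicates 1 to 3, against -2.37, 0.49 and -1.25 in control-lineage replicates 1 to 3. In control replicate 2 alone, Cyp17a1 had more CPM than Cyp11a1. The log2 ratio of Hsd3b1 to Cyp11a1 was 3.59 ± 0.0147 in the DEHP lineage and 3.70 ± 1.10 in the control lineage (SD, n = 3 each). The log2 ratio of Cyp17a1 to its electron donor Por was -0.69 ± 0.34 in the DEHP lineage and 0.44 ± 1.18 in the control lineage.

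The SD was larger in the control lineage for all 9 genes, and for 69.6% of all genes. Among the 13063 genes whose mean reached 1 log2 CPM, the control-lineage SD of Cyp17a1, 1.20, was above that of 99.46% of genes, that of Cyp11a1, 0.89, above 98.99%, and that of Star, 0.52, above 96.3%. Por, at 0.13, was above 54.2%. In the DEHP lineage the SD was 0.39 for Cyp17a1, above 96.2% of genes, but 0.03 for Cyp11a1, above 14.6%. Over these genes the median SD was 0.0784 in the DEHP lineage and 0.122 in the control lineage. The removal of the surrogate variable acted mostly on DEHP-lineage replicates 1 and 3, and its part in the smaller SDs of that lineage was not tested.

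Among 12307 genes whose mean reached 1 log2 CPM and whose symbols are not provisional, those most like Cyp17a1 across the 6 ovaries were Ppp1cc, Rmdn2, Zfp930, Cdk5r1 and Mapk14, with Pearson's r of 0.997 to 0.999. Those most like Star were Cdk12, Mmd2, Tm9sf3, Cox15 and Zzz3, with r of 0.996 to 0.997. An r of at least 0.95 with Cyp17a1 was reached by 160 of the 12307 genes, and with Star by 138. The named genes were picked for the highest r in the same 6 ovaries, which leave few degrees of freedom. Their high r values therefore carry no test, since a search over so many genes favours such values. Whether the named genes share regulation with Cyp17a1 or Star was not tested.

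The markers of theca and interstitial cells were measured for 14 of 14 genes, which include genes described above. Their summed level was 3361 to 3472 CPM in the DEHP lineage and 3606 to 4397 CPM in the control lineage, most of it Hsd3b1. Of the defining markers, Cyp17a1 was at 33.4 CPM or more in every ovary, and Insl3 was under 1 CPM. Lhcgr, the receptor for luteinizing hormone, was at 4.73 to 4.98 log2 CPM in the DEHP lineage and 4.85 to 5.79 log2 CPM in the control lineage. Ptch1, a hedgehog receptor of theca cells, had a log2 difference of -0.23 (limma adjusted p 0.569). Aldh1a1 was the marker of the 14 with a higher mean in the DEHP lineage, at 0.15 (0.669). Several of the 9 genes are also made by other steroid-forming cells, so that theca levels were not measured as such. Adrenal cortex, which uses the same early enzymes, had 1 of 6 markers in the table, Mrap, at 6.71 to 11.9 CPM in the DEHP lineage and 9.68 to 12.2 CPM in the control lineage. The adrenal enzymes Cyp21a1, Cyp11b1 and Cyp11b2 were not analysed here.

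Markers of other cell types varied beside these genes. Summed smooth muscle markers (6 of 6 measured) were 1464 to 1720 CPM in the DEHP lineage and 1861 to 2074 CPM in the control lineage. Summed adipocyte markers (8 of 8) were 59.0, 536 and 114 CPM in DEHP-lineage replicates 1 to 3, against 248, 115 and 70.7 CPM in control-lineage replicates 1 to 3. Control replicate 1, low in Cyp17a1 and Star, was the control ovary highest in fat markers. DEHP-lineage replicate 3 and control replicate 2 had similar sums of fat markers, with Cyp17a1 at 36.6 and 139 CPM. Granulosa markers (10 of 10) were 11055 to 12292 CPM in the DEHP lineage and 10226 to 11195 CPM in the control lineage. Oocyte markers (8 of 8) were 1011 to 1145 CPM in the DEHP lineage and 1096 to 1421 CPM in the control lineage. Luteal markers (5 of 5) were 94.4 to 120 CPM in the DEHP lineage and 87.5 to 133 CPM in the control lineage. Oviduct markers (3 of 4) were 5.47 to 13.9 CPM in the DEHP lineage and 3.90 to 7.17 CPM in the control lineage. These sums overlapped between lineages, as did those of granulosa, oocyte and adipocyte markers, while the smooth muscle sums did not. Endothelial markers (4 of 4) were 223 to 261 CPM in the DEHP lineage and 248.7 to 289 CPM in the control lineage. Macrophage markers (5 of 5) were 45.7 to 49.96 CPM in the DEHP lineage and 30.4 to 71.3 CPM in the control lineage. Erythroid markers (4 of 5) were 115 to 278 CPM in the DEHP lineage and 65.4 to 126 CPM in the control lineage. The part of these in the differences above was not tested.

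Genes that supply cholesterol to the route had lower means in the DEHP lineage in 10 of 12 cases, with a median log2 difference of -0.14 and 0 called. The lineages did not overlap in 5 of the 12, not all of them lower, against 22.9% of all genes in either direction. Stard4, a cytosolic cholesterol carrier, was at -0.36 (limma adjusted p 0.569), and Scarb1, the receptor for cholesterol of high-density lipoprotein, at -0.24 (0.771). Tspo, a protein of the outer mitochondrial membrane, was at -0.23 with no overlap. For Scarb1, control replicate 3 was the highest ovary, at 8.25 log2 CPM, as for Cyp11a1, Fdx1 and Mgarp. Vdac1, a channel of the outer mitochondrial membrane, was at -0.15 with no overlap, and Acbd3, a Golgi protein that binds TSPO, was also at -0.15, with overlap.

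Other electron carriers had a median of -0.04, with 4 of 6 lower and 0 called. Cyb5a, the cytochrome that aids the androgen-forming step of CYP17A1, was at 9.26 to 9.40 log2 CPM in the DEHP lineage and 9.06 to 9.41 log2 CPM in the control lineage, a difference of 0.14 (limma adjusted p 0.751). Fdx2, the other ferredoxin, had the largest difference of this list, -0.59 (0.691), at a mean of 0.777 CPM in the DEHP lineage and 1.18 CPM in the control lineage.

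Genes of later steroid steps had lower means in 9 of the 12 measured of 15 listed, with a median of -0.09 and 0 called. The lineages did not overlap in 3 of the 12, against 22.9% of all genes. Srd5a1, the 5-alpha-reductase, was at 4.37 to 4.61 log2 CPM in the DEHP lineage and 4.89 to 5.71 log2 CPM in the control lineage. Its log2 difference of -0.71 (limma adjusted p 0.491) came with no overlap. That of Hsd11b2, which inactivates glucocorticoids, was -0.53 (0.48), also with none. These were the 2 of the 12 with an unadjusted limma p under 0.05, against 8.78% of all genes in either direction. Hsd11b1, which acts in the opposite direction, had the largest difference, 1.00 (0.622), at a mean of 1.69 CPM in the DEHP lineage and 0.973 CPM in the control lineage. Akr1c18, a progesterone-degrading enzyme, and Hsd17b3, a testosterone-forming one, were at -0.71 and -0.66 with means under 1 CPM in both lineages. Akr1c14, another aldo-keto reductase, was at -0.27. Cyp19a1, the aromatase of granulosa cells, was at 2.83 to 3.61 log2 CPM in the DEHP lineage and 2.25 to 3.66 log2 CPM in the control lineage, a difference of 0.16 (0.92).

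Of the luteinizing hormone and cAMP list, 13 of 19 had lower means, with a median of -0.04 and 0 called. Lhcgr was at -0.34 (limma adjusted p 0.715), with control replicate 2 the high ovary. Pde4a, which degrades cAMP, was at 0.33 (0.649), and Pde4b and Pde8a, other phosphodiesterases, were at -0.23 and 0.15. An unadjusted limma p under 0.05 was found for 1 higher and 1 lower gene of the 19, against 8.78% of all genes. These were Adcy6, an adenylyl cyclase, at 0.19 (limma adjusted p 0.558), and Prkar2a, a regulatory subunit of protein kinase A, at -0.23 (0.564).

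Transcription factors of steroid-forming cells had higher means in 7 of 11 cases, with a median of 0.10 and 0 called. An unadjusted limma p under 0.05 was found for 3 of the 11 (Gata6, Tcf21 and Nr4a1), all higher. Of all genes, 8.78% had one in either direction. Gata6, which regulates steroid enzyme genes, was at 7.18 to 7.30 log2 CPM in the DEHP lineage and 6.50 to 6.89 log2 CPM in the control lineage, a log2 difference of 0.48 (limma adjusted p 0.382). Tcf21, a factor of stromal cells, was at 0.40 (0.455) and Nr4a1, an early response nuclear receptor, at 0.35 (0.477), both with no overlap. Over the list, 4 of the 11 genes had no overlap, against 22.9% of all genes. Gata4 and Nr2f2, a factor of stromal and theca cells, were at 0.16 and 0.11. Nr5a1 was at 7.17 to 7.36 log2 CPM in the DEHP lineage and 7.32 to 7.54 log2 CPM in the control lineage, a difference of -0.20 (0.585). Control replicates 2 and 3 were its high ovaries, as for Cyp17a1 and Star.

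Rxfp2, the receptor for INSL3, was at -2.31 to -1.28 log2 CPM in the DEHP lineage and -1.69 to 0.21 log2 CPM in the control lineage, with overlap and a difference of -1.19 (limma adjusted p 0.614). Insl6, the other measured gene of 7 in the relaxin list, had a difference of 0.22. Of the 8 genes of mitochondrial shape and transport, 5 had lower means and 0 were called, with differences from -0.14 (Mfn1) to 0.11 (Rhot2) and a median of -0.01. Mgarp is known to act in mitochondrial transport, and the transport genes Trak1 and Trak2 were at 0.11 and 0.06.

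**Figure D5:**
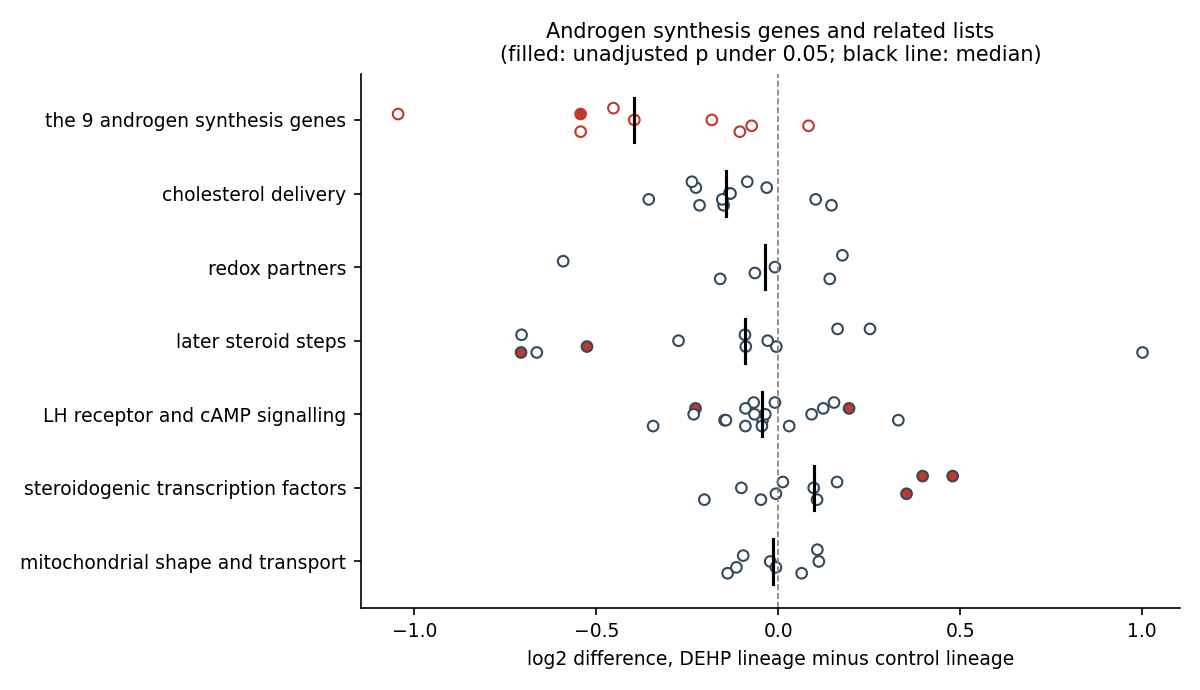
Log2 difference, DEHP lineage minus control lineage, of the 9 androgen synthesis genes and of the genes of related lists (points, one per gene), with each list's median as a black line. Filled points have an unadjusted p under 0.05. The medians drawn run from -0.40 for the 9 genes (-0.32 without Insl3, -0.18 on the log2(CPM + 1) scale) to 0.10 for the transcription factors. The INSL3 and relaxin list, with 2 genes measured and a lower median of -0.48, is not drawn. Of the genes drawn, 0 passed the adjusted threshold.

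In the authors' deposited table of their own comparison, 8 of the 9 genes had negative log2 fold changes and 0 had an adjusted p under 0.05, where 3 genes of all had one. That table gives Cyp17a1 -1.24 (adjusted p 0.891), Mgarp -0.57 (0.731) and Star -0.59 (0.817). Cyp11a1 is at -0.27 (0.965) there.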

How the data were processed

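Libraries came from a strand-specific mRNA kit, per the labels' protocols. The submitters' processing notes name edgeR 3.20.5 in R 3.4.3, featureCounts with Subread 1.5.2, the STAR aligner 2.5.3a, Trimmomatic 0.36, and build GRCm38.p6, with no roles, no strand setting and no rule for overlapping genes. The authors deposited log2 CPM per ovary with a surrogate variable removed. Their deposited table also holds a log2 fold change, a p-value and its adjusted form for each gene.

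All rows entered a single fit (limma 3.58.1, R 4.3.3), a two-sided moderated test with a mean-variance trend, with no filter, pseudocount or covariate, and checked on simulated data. It used 3 residual degrees of freedom, 1 fewer than the nominal 4, for the removed variable. Adjusted p-values are Benjamini-Hochberg values over 16454 genes. Read counts were not used, so depth and precision from counting are unknown. The 9 genes, the lists, the markers and the motifs were chosen with earlier results of these data known. Named besides the 9 were up to 6 genes per list with the largest differences, 9 genes set by name, and the 5 genes most like Cyp17a1 and Star. Jak3, Ptch1, Aldh1a1 and Mrap were also named, after their values were seen. A gene that the rule names is not reported here. Exon lengths and shared 31-base words are from GENCODE M21, positions and promoters from RefSeq, matched by Entrez identifier. Alternatives were other degrees of freedom, the replicate block, quantile normalization, median centring, a filter at a mean log2 CPM of 1, log2(CPM + 1), no trend, leaving out each ovary, and averaging DEHP-lineage replicates 1 and 3. The fits with nominal degrees of freedom for the block and for each left-out ovary, and the medians of the 9 genes by setting, were added after seeing the data.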

Additional observations from a re-analysis of the deposited data

How the results depend on the processing

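Of 188 values of the 9 genes under 21 alternatives, 179 kept their direction and their side of an adjusted p of 0.05. Insl3 has no value under the filter on low values, since its mean is below 1. Cyp11a1 changed sign without control-lineage replicate 3, at 0.39 with either count of degrees of freedom, and leaving out 1 ovary gave it -0.50 to 0.39. Leaving out 1 ovary gave 0 to 3 of the 9 genes with an adjusted p under 0.05, 1 to 5 with an unadjusted p under 0.05, and 2 to 270 of all genes called (2 to 35 with nominal degrees of freedom). The fits without DEHP-lineage replicate 1 (3 of the 9: Cyp17a1, Fdx1 and Mgarp) and 3 (2 of the 9: Cyp17a1 and Mgarp) had infinite prior degrees of freedom in limma, so each gene's own spread did not enter, and with nominal degrees of freedom they called 0 of the 9. Without control-lineage replicate 1, Cyp17a1 was called with 2 residual degrees of freedom and not with 3. Of all genes, 20 were called with 4 residual degrees of freedom, 3 after quantile normalization and 1 with no mean-variance trend, against 7 as reported; the cause was not tested.

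Same-numbered ovaries showed no sign of pairing in these values. Deviations from the lineage means had correlations of -0.33, -0.003 and -0.20 for same-numbered ovaries. Of the 6 ovaries, 0 correlated best with its own number. The surrogate variable had been removed before this check, so it cannot tell whether the ovaries were paired. With the replicate block and 1 residual degree of freedom, 83 genes and 1 of the 9 (Cyp17a1) were called, 3 of the 9 at an unadjusted p, again with infinite prior degrees of freedom. With its nominal 2, 6 genes and 0 of the 9 were called. With a depth that is unknown, no limit of detection can be given for Insl3 or Rxfp2.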
